A study of Mus musculus with 10 samples.

Results

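The Arraystar mouse lncRNA array carries, beside its lncRNA probes, a small custom set that targets RefSeq coding transcripts, and the probes described here are 98 of that set. They were chosen by the probe name of this custom set together with a RefSeq mRNA accession, and 5 of the 103 probes that meet both conditions were left out by number. They make up 98 of 59709 probes that are not controls. By RefSeq, 92 of the 98 accessions matched 1 gene symbol, which gave 90 genes, and 6 accessions had no match and are called by accession. The name given to the set, multicopy and predicted coding genes, describes most of it but not all: 23 probes target genes of the Y chromosome, 7 target copy families of the X chromosome, 13 target vomeronasal receptor genes, 7 target PRAME-like and predicted genes of chromosome 5, 8 target genes of the oocyte and early embryo, and 3 target histone H2A genes. A further 6 target secreted defence or digestive proteins, 4 target other predicted genes, 6 have no name, and 21 target other named genes such as Hmgcs1, Brox and Vamp7, which are not repeated families.

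Total RNA from wild-type mice fed chow and from wild-type brown adipocytes in culture was labelled with Cy3 and hybridised to 10 arrays of 1 colour. The mice received daily intraperitoneal saline or CL316,243 (called CL below) at 1 mg/kg, a beta-adrenergic agonist that activates brown fat and browns white fat, for 7 days. The groups were brown fat after saline (2 arrays), white fat after saline (2 arrays), white fat after CL (2 arrays) and brown adipocytes on days 0, 3, 5 and 7 of differentiation (1 array each). The labels call the tissue samples biological replicates but do not say whether each is 1 mouse, and give no sex, age or white fat depot for the mice and no origin for the cells, so p-values measure only the spread between these samples. The labelled tissue and cell types could not be checked on defining markers, since 3 of 47 listed marker genes were measured under their names (Ccl21b, Ccl21c and Amy2a5) and none of the brown adipocyte or adipocyte markers was.

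Multicopy genes of the mouse sex chromosomes are known mainly from the testis. Ssty1, Ssty2 and Sly are expressed in developing sperm cells from many near-identical copies on the long arm of the Y chromosome, and related families lie on the X chromosome. Vomeronasal type 1 receptors are pheromone receptors of sensory neurons of the nose, PRAME-like genes and the Obox and Tcstv genes are known from germ cells, the oocyte and the early embryo, and defensins are antimicrobial peptides of epithelia. None of these families is known for a role in fat. Copies of such a family share most of their sequence, so a single probe can bind RNA from several copies, and which copies contributed to each value was not tested, since probe sequences were not used here.

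How alike neighbouring copies are can be seen in their promoters, here 250 bases before to 50 bases after the transcription start, from RefSeq on build GRCm38.p6. A promoter was listed for 72 of the 90 genes, with 78 promoters in all. The PRAME-like gene Pramel39, 1 of the genes called between tissues, and its near copy Pramel37 differ at 5 aligned positions within the overlap of their windows, and capitals mark bases that are changed or inserted relative to the other copy.
Pramel39, chr5:94306747-94307046, minus strand: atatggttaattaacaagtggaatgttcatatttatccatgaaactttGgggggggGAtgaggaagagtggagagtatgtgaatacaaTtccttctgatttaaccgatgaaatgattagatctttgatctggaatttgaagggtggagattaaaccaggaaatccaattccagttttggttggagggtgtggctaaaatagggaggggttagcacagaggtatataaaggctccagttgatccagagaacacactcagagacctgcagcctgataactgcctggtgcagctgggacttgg
Pramel37, chr5:94070496-94070795, minus strand: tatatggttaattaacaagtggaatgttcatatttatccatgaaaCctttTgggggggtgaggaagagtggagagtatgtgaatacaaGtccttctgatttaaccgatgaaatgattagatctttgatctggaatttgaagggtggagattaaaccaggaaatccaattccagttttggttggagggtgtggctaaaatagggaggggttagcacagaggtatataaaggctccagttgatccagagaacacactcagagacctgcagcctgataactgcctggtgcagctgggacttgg
The next 4 promoters stand for the groups whose probes moved together (the Y chromosome genes Ssty1 and Gm20816, the vomeronasal receptor gene Vmn1r257) and for the histone genes, whose promoters are rich in CG (H2ac18); capitals mark CG dinucleotides.
Ssty1, chrY:18088917-18089216, plus strand: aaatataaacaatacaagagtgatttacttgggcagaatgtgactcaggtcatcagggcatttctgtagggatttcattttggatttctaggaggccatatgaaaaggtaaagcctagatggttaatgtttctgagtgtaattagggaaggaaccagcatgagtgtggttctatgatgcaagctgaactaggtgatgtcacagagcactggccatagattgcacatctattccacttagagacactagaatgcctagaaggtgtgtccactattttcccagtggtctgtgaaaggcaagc
Gm20816, chrY:68537705-68538004, plus strand: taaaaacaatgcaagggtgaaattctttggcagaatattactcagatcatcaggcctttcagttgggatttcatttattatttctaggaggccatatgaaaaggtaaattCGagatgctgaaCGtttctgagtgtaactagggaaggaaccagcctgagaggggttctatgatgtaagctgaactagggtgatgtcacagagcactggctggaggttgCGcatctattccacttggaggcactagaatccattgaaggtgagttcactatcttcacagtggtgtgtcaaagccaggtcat
Vmn1r257, chr7:22692268-22692567, minus strand: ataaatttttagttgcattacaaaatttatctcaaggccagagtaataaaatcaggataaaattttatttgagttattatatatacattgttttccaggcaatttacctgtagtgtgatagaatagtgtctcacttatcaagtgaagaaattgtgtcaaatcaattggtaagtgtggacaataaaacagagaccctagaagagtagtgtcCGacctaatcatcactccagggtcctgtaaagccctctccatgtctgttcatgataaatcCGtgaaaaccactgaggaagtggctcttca
H2ac18, chr3:96245247-96245546, plus strand: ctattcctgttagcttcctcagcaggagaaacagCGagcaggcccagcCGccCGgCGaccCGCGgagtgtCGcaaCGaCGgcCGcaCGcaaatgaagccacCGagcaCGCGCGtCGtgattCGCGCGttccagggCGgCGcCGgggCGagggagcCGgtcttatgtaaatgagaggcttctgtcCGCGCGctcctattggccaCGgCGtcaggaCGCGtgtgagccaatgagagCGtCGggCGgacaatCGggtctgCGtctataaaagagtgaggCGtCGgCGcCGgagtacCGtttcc
The CG dinucleotide was rare in most of these promoters: the median was 4 per promoter over the set, 3 for Y chromosome genes and 2 for vomeronasal receptor genes, against 7 over all 32851 promoters of the table. The 3 histone promoters stood apart with 18 to 41, of which H2ac18 had 41. The letters TATAAA, searched on both strands, were present in 24.4% of the set's promoters and in 13.6% of all promoters, and the letters CCAAT, on both strands, in 51.3% and 37.4%. CCAAT was present in the promoters of all 11 vomeronasal receptor genes listed and in 2 of 20 promoters of Y chromosome genes. Gm20816 and Gm20867, Gm14819 and Gm10147, and Vmn1r257 and Vmn1r111 had identical promoters.

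All values below are scaled log2 signals: each is the log2 of a probe's processed signal less the 75th percentile over its array, which therefore stands at 0. A value compares arrays for 1 probe: brightness depends on the probe, so levels of different probes say nothing of which gene is more abundant. Of the 98 probes, 62 (63.3%) were flagged as well above background on all 10 arrays, against 49.5% of all probes, and 3 (Gm1140, the beta-defensin gene Defb33 and the mucin-like gene Mucl2) on none. That flag is lenient here, since it was also set for 10.9% to 36.4% of the negative control spots of an array, and 33 of the 98 probes lay above the 95th percentile of those spots on all 10 arrays. Over all probes, the share well above background ran from 55.2% on brown fat replicate 1 to 78.3% on the day 3 array. On the 4 cell arrays the lowest value was a floor shared by 8 to 15 of the 98 probes, and values at the floor have no order.

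Most of the 43 probes for Y chromosome genes, X chromosome copies and vomeronasal receptors moved together from array to array, and 36 of the 43 had higher signal on every tissue array than on any array of the cultured cells. The median of the 23 Y chromosome probes was 0.42 and 0.92 on the brown fat arrays, 1.63 and 2.08 on the saline white fat arrays and 0.32 and 1.76 on the CL white fat arrays. On days 0, 3, 5 and 7 of the cells it was -3.61, -3.92, -3.67 and -3.46. The medians of the other groups moved the same way: the X chromosome copies went from -1.43 and -0.95 in brown fat to -0.85 and -0.21 in saline white fat, and the vomeronasal receptors from -1.74 and -1.18 to -0.15 and 0.61. In the cells these medians lay between -4.26 and -3.37 and between -3.80 and -2.21. On every cell array the medians of the Y, X and vomeronasal groups lay below the 95th percentile of the negative control spots. That percentile was -1.17, -2.18, -2.63 and -2.32 on days 0, 3, 5 and 7, so the sizes of the gaps to the cells rest on dim values. The median of all tested probes, which the scaling to the 75th percentile holds nearly constant, lay between -1.34 and -1.14 on the 10 arrays.

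All 6 tissue arrays lay above all 4 cell arrays for 21 of the 23 Y chromosome probes, 6 of the 7 X chromosome probes and 9 of the 13 vomeronasal probes. Over the 95 probes of the set that were well above background on at least 1 array this held for 46 (48.4%), against 7.55% of all such probes, and the reverse held for 8 (8.42%) against 10.9%. Tissue and cell arrays were scanned in separate scans, so tissue and scan cannot be told apart here, and 1 array per day allows no test. Without CL replicate 1 the count was 48, and without brown fat replicate 1 it was 46.

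Ssty1, a spermiogenesis gene of the Y chromosome, read 0.42 and 0.99 in brown fat, 1.94 and 2.42 in saline white fat, 1.35 and 2.56 in CL white fat, and -3.09, -2.70, -1.92 and -1.39 in the cells. The neighbouring Gm20831 followed it closely, with 0.54, 1.05, 1.97, 2.41, 1.35 and 2.53 on the tissue arrays in the same order and -2.63, -2.64, -1.73 and -1.55 in the cells. Ssty2 was well above background on all tissue arrays (0.50 to 2.41) and on none of the 4 cell arrays. Sly, whose product acts on sex chromosome genes in spermatids, ran from -0.41 to 1.19 in the tissues and from -4.47 to -2.61 in the cells. Tissue and cell values therefore did not overlap for any of these 4 genes.

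Gm20816 read between 0.32 and 2.18 on the tissue arrays and was not well above background on any cell array. Its copy Gm20867, with the identical promoter, read 0.53 to 2.42 in the tissues and was also at background in the cells. Gm20738 and Gm20823 had the smallest gaps between tissues and cells of the 21: Gm20738 read 1.26 to 2.33 in the tissues and 0.20 to 0.41 in the cells, and Gm20823 read 0.78 to 2.32 and -0.11 to 0.48. The other 13 probes of the group read -2.18 to 3.22 in the tissues and -6.98 to -2.29 in the cells. In all, 8 of the 23 Y chromosome probes were well above background on no cell array, and 2 of the 23 lay above the 95th percentile of the negative control spots on all 10 arrays. The remaining pair of Y chromosome probes, H2al2b and Rbm31y, did not follow the group and are described further on.

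Among the X chromosome copies, Gm10147 read -1.09 and -0.94 in brown fat, 0.03 and 0.35 in saline white fat, -1.08 and 0.16 in CL white fat and -3.94 to -2.52 in the cells. Gm14819, with the identical promoter, read -0.91 and -0.93, 0.01 and 0.30, -1.02 and -0.09, and -3.95 to -2.64 in the same groups. Gm10488 ran from -4.26 to -2.64 in the cells and from -0.96 to 0.41 in the tissues. Gm10487 ran from -2.91 to -0.71 in the tissues and from -5.21 to -3.81 in the cells. Btbd35f4, which encodes a protein with a BTB domain, ran from -1.79 to -0.21 in the tissues and from -3.67 to -2.86 in the cells. Ott, a gene known from the ovary and testis, was well above background on 5 of 6 tissue arrays (-4.38 to -1.60 over all 6) and on no cell array, but was never above the 95th percentile of the negative control spots. Only Gm1140 of this group stayed at background throughout, between -6.98 and -5.19.

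Vomeronasal receptor probes were likewise higher in saline white fat than in brown fat by their median. Vmn1r157 read -0.15 and 0.18 in brown fat, 1.13 and 1.77 in saline white fat, 0.09 and 1.24 in CL white fat and -1.45 to -0.70 in the cells. Vmn1r257 and Vmn1r111, with identical promoters, both had their highest value on saline white fat replicate 2 (0.99 and 0.90) and their lowest tissue value on CL replicate 1 (-0.87 and -0.76). Vmn1r135 ran from -0.84 to 0.99 in the tissues and from -2.19 to -1.53 in the cells. Gm10665, listed among the vomeronasal genes, read from -2.69 to -0.33 in the tissues and was well above background on none of the cell arrays. Vmn1r186, Vmn1r187, Vmn1r62 and Vmn1r63 had tissue and cell values that overlapped, and Vmn1r63 was well above background in saline white fat alone (-3.70 and -3.19).

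Brown fat was first compared with white fat, both after saline, to ask which transcripts mark the tissue. In limma's fit to the 6 tissue arrays with Benjamini-Hochberg adjustment over 43542 tested probes, 3 of the 94 tested members of the set were called at an adjusted p under 0.05, all lower in brown fat: Gm4312, Pramel39 and Gm16367. That is 3.19% of them, against 10.4% of all tested probes (5.53% called higher in brown fat and 4.86% called lower). At an unadjusted p under 0.05 there were 34 members, against 29.8% of all tested probes. None of these 3 calls was left without brown fat replicate 1, brown fat replicate 2, saline white fat replicate 1 or saline white fat replicate 2, nor when all probes were tested without a filter (adjusted p 0.0620 to 0.0843). Without CL replicate 1 or 2, which enter through the shared spread, 43 and 42 members were called, against 31.6% and 31.2% of all tested probes.

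Gm4312, a predicted gene, read -0.67 and -0.05 in brown fat and 1.95 and 1.52 in saline white fat. The means were -0.36 ± 0.44 (SD, n = 2) and 1.73 ± 0.30 (SD, n = 2), so the signal was 4.28-fold lower in brown fat (log2 difference -2.10, SE 0.42, limma adjusted p = 0.0293). It read 1.34 and 1.97 in CL white fat and 2.28 to 2.82 in the cells, so brown fat was the lowest of all groups and the cultured brown adipocytes the highest. In tissue RNA, fewer cells of a type that express a gene and less RNA per cell cannot be told apart.

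Pramel39 read -3.44 and -2.51 in brown fat and -0.95 and -0.25 in saline white fat, 5.18-fold lower in brown fat (log2 difference -2.37 with an SE of 0.59, adjusted p = 0.0465 by limma). Its near copy Pramel37 read -4.12 and -2.98 against -1.40 and -0.56, and was not called. For Pramel39, 1 of the 2 brown fat arrays was well above background. With background corrected by normexp, the call was lost for Pramel39, with an adjusted p of 0.116 and a log2 difference of -1.09.

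Gm16367, a predicted gene of the same chromosome 5 group, read -2.78 and -1.78 in brown fat, -0.54 and 0.07 in saline white fat and -0.20 and -0.59 in CL white fat. The log2 difference between the saline groups was -2.04 (SE 0.46, limma adjusted p = 0.0382), with 1 of the 2 brown fat arrays well above background. It was well above background on no cell array. The other 4 probes of the chromosome 5 group behaved otherwise. E330014E10Rik read between -0.39 and 0.54, Gm16513 between -1.05 and 0.38, and the first Gm3286 probe between -0.77 and 0.23 on all 10 arrays. In these, tissue and cell values overlapped. E330014E10Rik and both Gm3286 probes had both brown fat arrays above both saline white fat arrays. The second Gm3286 probe ran from -1.93 to -0.16, and the Gm3286 probes disagreed on day 5: against day 0 the first was level and the second dropped from -0.28 to -1.93.

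The direction seen in these 3 genes ran through most of the set. Of the 94 tested members, 68 (72.3%) had both brown fat arrays below both saline white fat arrays, against 40.4% of all tested probes, and 10 (10.6%) had them above, against 32.1%. The median log2 difference was -0.86 over the members and -0.12 over all tested probes with a value on every array, and 79 of 94 (84.0%) were below 0, against 55.2%. By group the median was -1.23 for Y chromosome genes, -1.14 for X chromosome copies and -1.43 for vomeronasal receptors, of which 40 of 41 tested were below 0 and none was called. These groups, whose copies a single probe may bind together, held 39 of the 68. The median was -0.21 for the chromosome 5 group, -0.27 for other named genes and -1.12 to -0.46 for the remaining groups. The 4 saline arrays lay in 1 column of the slide, brown fat in rows 1 and 2 and white fat in rows 3 and 4, and in 51 of 94 members (54.3%) the value rose from row to row, against 15.4% of all tested probes. The tissue cannot be told apart from the row here.

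Among members not called that were well above background on both arrays of both groups, Vmn1r241 read -1.08 and -0.65 in brown fat against 0.54 and 1.12 in saline white fat (adjusted p = 0.0829), and Vmn1r243 read -1.74 and -1.18 against -0.15 and 0.61 (adjusted p = 0.0873). Gm20815, on the Y chromosome, read -0.68 and -0.31 against 0.85 and 1.40 (adjusted p = 0.0880). The groups did not overlap for any of the 3, with log2 differences of -1.69, -1.69 and -1.62. Vmn1r259 (-1.55), the accession NM_009485 (-1.55), Ssty1 (-1.48) and Vmn1r157 (-1.43) followed by log2 difference among these, each with an adjusted p between 0.0911 and 0.1151. Members with an array at background in brown fat reached larger differences without being called, among them Pramel37 (-2.57, adjusted p = 0.0518), Vmn1r93 (-2.14), Gm10665 (-1.81) and Ott (-1.75). The oocyte homeobox gene Obox2 was not well above background in brown fat and was at least 1.52-fold higher in saline white fat (adjusted p = 0.0583).

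Among the tested members, Nim1k, which encodes a protein kinase, had the largest difference in the other direction. It read -0.52 and -1.10 in brown fat, -2.73 and -2.17 in saline white fat, -2.40 and -1.81 in CL white fat and -2.57 to -2.19 in the cells. Both brown fat arrays were thus above every other array, with a log2 difference of 1.64 (SE 0.42) that just missed the threshold (limma adjusted p = 0.0507). It passed under quantile normalization (0.0321) and median scaling (0.0320), with the flag required on all tissue arrays, with the replicate number as a block and with only the compared groups fitted. It did not pass with normexp or without a filter. H2al2b, an H2A-like histone gene of the Y chromosome, was the only Y chromosome probe tested that was higher in brown fat, with -0.99 and -1.94 against -2.44 and -2.12.

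CL was compared with saline in white fat to find transcripts that change when white fat browns. No member was called, nor was any of the 43542 probes tested by limma (0%). Leaving out saline white fat replicate 2 left that group with replicate 1 alone, the array on which AY761185 and Gm6040 were high. At an unadjusted p under 0.05 there were 6 members of 94, and 5.46% of all tested probes. The median log2 difference was -0.54 over the members and -0.08 over all tested probes, and 78 of 94 members were below 0.

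The pair of CL arrays differed from each other over most of the set. Replicate 1 lay below replicate 2 in 89 of 94 tested members (94.7%), against 70.5% of all tested probes, and at least 2-fold below it in 54 (57.4%), against 22.8%. All 43 probes for Y chromosome, X chromosome and vomeronasal genes were lower on replicate 1. Both arrays lay below both saline arrays for 17 members (18.1%), against 15.4% of all tested probes, and above for 3 (3.19%), against 12.6%. Without replicate 1 the median of the members was -0.05 (all probes 0.14), and without replicate 2 it was -1.05 (all probes -0.27). The size of the shift in white fat thus depended on which of the 2 arrays was kept. Both CL arrays lay in the slide's other column, and the treatment cannot be told apart from that column.

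Hmgcs1, an enzyme of cholesterol synthesis, read 7.31 and 8.20 in saline white fat and 8.27 and 9.32 in CL white fat. The log2 difference was 1.04 (SE 0.49, limma adjusted p = 0.930). The groups did not overlap, but CL replicate 1 lay only just above saline replicate 2. The brown fat arrays read 8.44 and 8.39.

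Larger values rested on single arrays. AY761185, a defensin-like gene, read 3.73 and -0.54 in saline white fat and -2.32 and -1.76 in CL white fat (log2 difference -3.63, SE 1.16, adjusted p = 0.773). B020031M17Rik read -2.33 and -2.32 in saline white fat and -1.81 and 0.84 in CL white fat (1.84, SE 0.77, adjusted p = 0.911). Pramel37 (-1.34), Gm10665 (-1.19), NM_009485 (-1.13), Vmn1r259 (-0.98), Vmn1r93 (-0.95), Vmn1r241 (-0.94) and Gm20865 (-0.94) were the others with the largest log2 differences among members well above background on all 4 arrays, and all 7 were lower on CL replicate 1 than on replicate 2.

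White fat after CL was also compared with brown fat, with which it shares the brown fat arrays of the first comparison. Of the members, 1 was called, Gm4312 (1.06%, against 3.49% of all tested probes, 1.98% with CL white fat higher and 1.51% with it lower). At an unadjusted p under 0.05 there were 12 members, against 22.7% of all tested probes. Its log2 difference was 2.02 (SE 0.42, limma adjusted p = 0.0488), and it was lost under quantile normalization (0.0552), without a filter (0.0984) and without either brown fat array (0.313 and 0.110) or either saline white fat array (0.102 and 0.0935), which enter through the shared spread. Without CL replicate 1 there were 4 calls, against 5.74% of all tested probes, and without replicate 2 there were 6, against 26.1%, with Gm4312 among them both times. The median log2 difference was 0.34 over the members and -0.03 over all tested probes. It was 0.83 (all probes 0.17) without CL replicate 1 and -0.30 (all probes -0.30) without replicate 2, so its sign rested on CL replicate 2.

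Of the members not called and well above background on all 4 arrays, B020031M17Rik (1.78), the unmatched NM_001008551 (1.43), Fam205a2 (1.32), Ssty1 (1.25), Tcstv1 (1.24) and Gm20831 (1.14) were higher by log2 difference in CL white fat than in brown fat. Tcstv1, a gene of the early embryo, read -0.24 and 0.65 after CL and -1.15 and -0.91 in brown fat. AY761185 (-1.44), H2al2b (-1.31) and Nim1k (-1.29) were lower by log2 difference. For all 9 the 2 arrays of each group did not overlap, which was so for 15 of the 94 members above (against 22.9% of all tested probes) and 10 below (against 26.7%).

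Genes of the oocyte and early embryo lay low on most arrays. Nlrp4g read -0.22 to 0.71 on the 10 arrays with little difference between tissue and cells. Obox2 was well above background in saline white fat alone (-3.30 and -2.45). Tcstv3 read -2.80 to -1.47 in the tissues and -3.13 to -2.07 in the cells. Tdpoz5 was well above background on 3 tissue arrays and AF067063, a neighbour of Tcstv1, on 2, and neither was ever above the 95th percentile of the negative control spots. BC147527 ran from -1.89 to -1.09 in the tissues and from -3.56 to -1.83 in the cells.

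The canonical histone genes H2ac18 and H2ac19, which lie side by side, are near-identical in sequence and supply H2A to dividing cells, were well above background on all arrays. H2ac18 read 7.90 and 7.85 in brown fat, 8.49 and 8.63 in saline white fat, 8.19 and 9.40 in CL white fat, and 4.77, 5.20, 5.36 and 6.18 on days 0, 3, 5 and 7. H2ac19 read 6.78 to 8.55 in the tissues and 6.32 to 6.73 in the cells. For both genes all tissue values lay above all cell values, by a wide margin for H2ac18 and a narrow one for H2ac19. H2ac23, the remaining gene of the family, read -3.29 to -2.12 on the 10 arrays, and was never above the 95th percentile of the negative control spots.

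During differentiation of brown adipocytes, 1 of the 79 members measured in the cells lay at least 2-fold above day 0 on days 3, 5 and 7, against 5.36% of all measured probes, and 5 lay at least 2-fold below it on all 3 days, against 6.2%. There was 1 array per day, so these are values without a test. The gene above day 0 was Amy2a5, a pancreatic amylase gene with near-identical copies beside it, which read -3.84, -1.32, -0.83 and -1.30 on days 0, 3, 5 and 7. It was 5.79-fold higher on day 7 than on day 0, but on day 0 it lay below the 95th percentile of the negative control spots (-1.17), so the size of this fold rests on a dim value. Its tissue values, 3.46 and 3.43 in brown fat, 3.08 and 3.50 in saline white fat and 2.36 and 3.76 in CL white fat, lay above every day of the cells.

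Aida, which encodes a protein that binds axin, fell the most by day 3, from 3.46 to 0.92, and read 1.75 and 2.03 on days 5 and 7. Vamp7, a SNARE of vesicle fusion, read 5.21, 3.44, 3.68 and 3.81. The unmatched NM_009268 read 3.71, 2.33, 2.64 and 2.54. All 3 had their step between day 0 and day 3, and Vamp7 on days 3 to 7 was near or above its tissue range of 2.66 to 3.44.

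Both probes for Ppp2r3d, a regulatory subunit of protein phosphatase 2A, gave nearly the same course: the first read 1.03, 0.01, -0.06 and -0.64, and the second 1.01, -0.11, 0.03 and -0.53. The first met the 2-fold rule on each day and the second missed it on day 5 by a small margin. Both lay lower in every tissue than on any day of the cells. Pramel39 fell from -2.50 on day 0 to -4.72 on day 3 and read -4.13 and -3.85 on days 5 and 7, with days 3 and 5 not well above background. On no day was it above the 95th percentile of the negative control spots.

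Other courses from day 0 to day 7 did not meet the rule on all days. The chemokine gene Ccl28 read 0.83, 0.24, -0.26 and -0.62, and H2ac18 stood 1.41 higher on day 7 than on day 0. Ssty1 stood 1.70 higher on day 7 and the predicted gene Gm21953 1.13 higher, at 3.36 against 2.23. Spry3, an antagonist of growth factor signalling next to Vamp7 on the X chromosome, was level in the cells (-0.86 to -0.41) and low in all tissues (-3.70 to -2.71).

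Several of the other named genes lie in a few stretches of the genome. Brox, Aida, Mia3, Taf1a and Hhipl2 are neighbours on chromosome 1, and Ccl28, Hmgcs1, Nim1k and Zfp131 on chromosome 13. Brox, which has a BRO1 domain, read 4.81 to 5.57 after CL and 4.69 to 5.56 in the cells, Taf1a, a factor of RNA polymerase I, 2.89 to 4.50 on the 10 arrays, and the zinc finger gene Zfp131 5.12 to 6.09. All 5 neighbours on chromosome 1 read lower on days 3, 5 and 7 of the cells than on day 0, Aida by at least 2-fold each day and Hhipl2 from -2.37 to between -3.09 and -2.52. The fall was not particular to this stretch: Ccl28 and Zfp131 on chromosome 13 also read lower on each later day, as did Dhrsx, Gm4312 and Gm13305, while Hmgcs1 and Nim1k did not. The share of all probes that fell on each day by any amount was not computed. On chromosome 13, Hmgcs1, Nim1k and Zfp131 each had both brown fat arrays above both saline white fat arrays, as did 32.1% of all tested probes. Zfp131 read 5.47 and 5.51 in brown fat against 5.12 and 5.38. For Ccl28, the remaining neighbour, brown fat and saline white fat overlapped.

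The 8 probes with all tissue arrays below all cell arrays were Gm4312, both Ppp2r3d probes, Zfp131, Disp1, Spry3 and the unmatched NM_011667 and NM_001199947. Disp1, which releases Hedgehog ligands, read 2.70 to 4.31 in the tissues and 4.49 to 5.32 in the cells, and NM_011667 read -0.16 to 0.98 and 1.47 to 1.51. Fam205a2 ran from -1.05 to 1.22 in the tissues and lay at the floor on day 5. The predicted gene Gm13305 and the unmatched NM_001199947 were well above background throughout: Gm13305 read 5.97 to 7.48 on the 10 arrays, and NM_001199947 read 5.62 to 7.19 in the tissues and 7.73 to 8.35 in the cells. Over the 10 arrays, Tsnax, whose product binds translin, read 5.67 to 6.96, Dhrsx, a dehydrogenase gene, 3.45 to 4.19, and Mia3, which acts in collagen export, -2.19 to -0.97. Fam177a2 read 2.40 to 3.37, Ulbp1, a ligand of an immune receptor, -1.27 to -0.56, Tagap 2.92 to 4.90, Gm6710 2.60 to 3.95 and NM_001177418 3.74 to 5.20, each within 4-fold. Of the other dim probes that were still well above background on all 10 arrays, Vmn1r62 read -2.72 to -1.10.

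In 4 members 1 array stood at least 4-fold above the other 9, which is 4.08% of the set, against 2.86% of all probes. AY761185 read 3.73 on saline white fat replicate 1 and at most -0.54 elsewhere. Its neighbour on chromosome 8, the predicted gene Gm6040, was high on the same array, with 0.91 against at most -2.86 elsewhere. Gm6040 was well above background on both saline white fat arrays and on neither brown fat nor CL array, and saline white fat exceeded brown fat at least 5.66-fold (adjusted p = 0.0809 by limma) and CL white fat at least 6.19-fold (adjusted p = 0.757). Both bounds rested on saline white fat replicate 1: with replicate 2 alone, a choice made after seeing the data, they were 1.53-fold and 1.68-fold, no member was called without replicate 1, and AY761185 then differed between brown and saline white fat by a log2 value of -0.06. Fitted without saline white fat replicate 2, which leaves the high array alone in its group with the spread of the other groups, both genes were called against brown fat and against CL, with adjusted p from 0.00355 to 0.0112.

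Rbm31y, an RNA-binding protein gene of the Y chromosome, read -0.26 on brown fat replicate 1 and between -6.12 and -4.20 on the other 9 arrays. With 1 array well above background it did not pass the filter with all tissue arrays kept and was not tested there, and the bound on its excess over saline white fat was at least 3.03-fold. It passed the filter without brown fat replicate 2, which left the high array alone in its group. B020031M17Rik read 0.84 on CL replicate 2 and between -2.41 and -1.34 elsewhere. The 2 arrays of a group thus disagreed for each of the 4 genes. Jrkl, named after its values were seen, also differed within groups: it read 1.06 and -1.15 in saline white fat and 1.52 and -0.31 in CL white fat, and its neighbour Ccdc82 read 5.54, 5.88, 4.77 and 5.84 on the same arrays.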

How the data were processed

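RNA from 6 fat samples and 4 cell samples was measured on 10 arrays of 1 colour. The deposited files hold the processed signal intensity per spot, background-corrected by Agilent Feature Extraction (version 11.0.1.1 per the file headers, 9.1 per the submitters' processing notes), with flags for spots well above background. Negative control spots (1200 per array, of 20 probes), other control spots and outlier spots were left out. The log2 of each spot was taken, spots of 1 probe were averaged and the array's 75th percentile was subtracted. The submitters' table of log2 values, as deposited, holds 18997 probes and none of the 98, so it was not used. Gene names came from RefSeq (GRCm38.p6) by accession. No spot of the 98 was saturated.

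A probe needed that flag on each array of some tissue group to be tested, which was done by limma 3.58.1 (R 4.3.3, lmFit and eBayes, 3 residual degrees of freedom), with Benjamini-Hochberg adjustment. All 3 tissue groups shared the spread. A gene at background on every array of a group has a bound only: the brighter group's mean set against the larger, on each array, of that probe's value and the lowest value with the flag. Cells were compared by a 2-fold rule without a test. The fit was tested on simulated data. With 2 arrays per group, or 1 per day, their number limits the precision.

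Named are members called, the 10 with the largest difference per tissue comparison and change in the cells among those with the flag on every array compared, the 5 brightest and 5 dimmest probes well above background on all arrays, those with a bound of at least 2-fold, and the extremes of each gene group. The members and lists were chosen with earlier results of these data known. Alternatives were normexp (offset 50, on median signals), quantile and median scaling, other filters, a replicate block, the compared groups alone and each tissue array left out.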

Additional observations from a re-analysis of the deposited data

How the results depend on the processing

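With 2 arrays per group, counts of calls moved with most choices. Signs were checked under the alternatives only for members named for a comparison by call, size of difference or bound, a choice that favours stable signs. None of these tested differences changed sign. Members named for other reasons could: for CL against saline white fat, Ssty1 had means of 1.95 and 2.18, but CL replicate 2 alone read 2.56. Rbm31y, which did not pass the filter with all tissue arrays kept, reads lower in brown fat (-4.98) than in saline white fat (mean -4.73) without brown fat replicate 1. For brown against saline white fat, 3 members were called, and 5 with normexp (10.2% of all tested probes), 7 with quantile normalization (13.3%), 5 with median scaling (13.4%), 0 without a filter (2.32%), 6 when the flag was required on all 6 arrays (17.2%), and 44 when only the 2 groups compared were fitted (32.8% of all tested probes then). Leaving out 1 array gave 0 to 43 calls: 0 to 2 without a saline array, 43 without CL replicate 1 (31.6% of all probes) and 42 without replicate 2 (31.2%), since the CL pair enters through the shared spread. For CL against saline white fat, 0 members were called, and 0 under every alternative that kept all arrays of both groups. Of all tested probes, at most 0.0735% were called in these fits. For this comparison, fits that left 1 array in a group were not counted. For CL white fat against brown fat, 1 member was called, against 3.49% of all tested probes. There were 0 with quantile normalization (3.37% of all), 0 without a filter (0.911%) and 2 with the 2 groups alone (7.93%). Members that fell in the cells numbered 5, and 2 with normexp and 3 with median scaling. Members well above background on all 10 arrays numbered 62, against 33 above the 95th percentile of negative controls. The causes were not tested, apart from the spread given above. Members with both brown fat arrays below both saline white fat arrays numbered 60 to 68, and those with tissue above cells 44 to 48, under the alternatives of scaling and background chosen after seeing the data. Differences between replicates 1 and 2 were correlated between saline and CL white fat (0.50). Between brown fat and saline or CL white fat they were not (-0.02 and -0.08). With the replicate number as a block, 16 members were called between brown and saline white fat (14.3% of all tested probes). There were 0 for CL against saline white fat (0.0023% of all) and 1 for CL white fat against brown fat (5.03%). Normexp on the mean signal was not run, because the files analysed give the median signal.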
